A study of Mus musculus with 2 samples.

Results

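The genes described here are 10 members of the Notch pathway: the receptors Notch1, Notch2, Notch3 and Notch4, the ligands Jag1, Dll1 and Dll4, and the target genes Hes1, Hey1 and Heyl. They were chosen by name from the 28692 genes of the count tables, and all 10 were found. The choice was made with earlier results of these data known, and it included the higher level of Notch3 in knockout fibroblasts, so that value and the members' values in the same cells are a description.

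Notch receptors are membrane proteins that are activated by ligands on a neighbouring cell. Ligand binding leads to cleavage of the receptor by ADAM proteases and γ-secretase, and the released intracellular part joins the DNA-binding protein RBPJ in the nucleus to switch on target genes, among them the Hes and Hey repressors. In blood vessels, Dll4, Jag1, Notch1 and Notch4 of the endothelium and Notch3 of the mural cells (pericytes and smooth muscle) are known for their part in arterial identity and in the coating of vessels by mural cells.

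Single-cell RNA was sequenced from the stromal vascular fraction of gonadal white adipose tissue (gWAT), the cells left once adipocytes have been floated off a digest of collagenase and Dispase. There was 1 library from Adipo-Pgam1 KO mice, which carry floxed Pgam1 alleles and Cre driven by the Adiponectin promoter (Adipoq-Cre), and 1 from littermates labelled wildtype, given in the study's methods as carrying the floxed alleles without Cre. Both came from C57BL/6 males aged 13 weeks, and the number of mice per library was not given in the sources used here. The control library held 8522 barcodes and 42859406 UMIs (unique molecular identifiers, 1 for each captured RNA molecule), and the KO library 2730 barcodes and 13821581 UMIs.

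After cells with under 500 genes or over 10% mitochondrial UMIs and likely doublets were left out, 3616 control and 937 KO cells remained, with a median of 6898 and 7494 UMIs per cell. The members took 15722 of the control and 3914 of the KO UMIs in these cells. Before filtering the libraries shared 9 barcodes, and no shared barcode remained afterwards. Clustering gave 23 groups of cells, and marker genes put a name on 17 of them, which made up 12 classes. Pdgfra, a receptor that marks fibroblasts, had a UMI in 98.9% of control and 94.7% of KO fibroblast-like cells. Cdh5, the cadherin of endothelial junctions, had one in 86.8% and 91.7% of endothelial-like cells. Rgs5, a regulator of G-protein signalling that marks pericytes, had one in every pericyte-like cell of both libraries, but there were only 7 such cells in the KO library against 126 in the control.

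With 1 library per genotype, no test of the genotype was possible. Levels are given as CPM (counts per 1000000 UMIs, summed over the cells of a class in a library). Each interval is an exact 95% interval that covers counting error only and not the spread between cells or between mice. Since the classes were built by clustering these same cells, levels by class are a description, although the members were left out of the genes used for clustering. Adipocytes, in which Cre is active, were almost lacking. Adipoq itself had 23 control and 8 KO UMIs, and Pgam1 was at 110 CPM (106–113) in all control cells and 116 CPM (109–123) in all KO cells. In the 6 sub-clusters of fibroblast-like cells described below, the log2 ratio of Pgam1 in KO over control lay between −0.30 and 0.60, and each interval included 0. The deletion was thus not seen in these classes, and the study's own cluster of cells with adipocyte markers was not rebuilt here.

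The sequences before the transcription start of Notch3 and Dll4 are shown because the results turn on these genes. By pooled class, they had their highest control levels in different cell types of the vessel wall: pericyte-like cells for Notch3 and endothelial-like cells for Dll4. Both are from RefSeq on GRCm38.p6 and are written 5′ to 3′ in the direction of the gene, over the 250 bases up to the start. Capitals mark GGGCGG or its reverse complement CCGCCC, the GC box bound by Sp1-type factors. For Notch3 the window is chr17:32166891-32167140 on the minus strand, and for Dll4 it is chr2:119325534-119325783 on the plus strand.
Notch3: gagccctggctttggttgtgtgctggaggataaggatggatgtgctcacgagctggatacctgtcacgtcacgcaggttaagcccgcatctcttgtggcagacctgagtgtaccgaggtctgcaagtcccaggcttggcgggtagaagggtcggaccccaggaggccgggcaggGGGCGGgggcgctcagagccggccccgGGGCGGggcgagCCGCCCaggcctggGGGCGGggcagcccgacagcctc
Dll4: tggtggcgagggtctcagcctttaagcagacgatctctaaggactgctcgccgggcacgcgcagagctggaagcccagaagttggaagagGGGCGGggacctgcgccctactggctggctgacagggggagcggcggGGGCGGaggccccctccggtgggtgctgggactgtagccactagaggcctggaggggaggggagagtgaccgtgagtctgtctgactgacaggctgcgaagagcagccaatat

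The RefSeq table used here gave a promoter for 7 of the 10 members, with 8 windows in all because Dll1 has 2. The Notch3 window held 4 GC boxes and the Dll4 window 2, and 4 of the 8 windows held at least 1, where 32.7% of all 32851 promoter windows of this length did. TGGGAA, the core of the sequence bound by RBPJ, and its reverse complement were in none of the 8 windows and in 21.6% of all windows. The absence of a match says only that these letters are not in this window.

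On GRCm38 (GENCODE M21, matched by gene identifier), Notch3 (ENSMUSG00000038146) lies on chromosome 17 from 32120820 to 32166852 on the minus strand. Dll4 (ENSMUSG00000027314) is on chromosome 2 from 119325784 to 119335962, Hey1 (ENSMUSG00000040289) on chromosome 3 from 8663359 to 8667256, and Hes1 (ENSMUSG00000022528) on chromosome 16 from 30064384 to 30067796. Of the 10 members, Notch3 and Dll1 overlap another counted gene, on the opposite strand in both cases. The strand setting of the counting is not given in the sources used here, so that reads of these pairs may not be told apart.

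Each of the Notch receptors had its own distribution across classes. Notch1 was an endothelial and pericyte gene in the control, at 542 CPM (467–625) in lymphatic endothelial-like, 402 CPM (359–449) in endothelial-like and 318 CPM (280–361) in pericyte-like cells, and the intervals of the last pair overlapped. Notch2, in contrast, was highest in immune cells, with 221 CPM (205–238) in dendritic-like, 166 CPM (139–197) in ILC2-like and 154 CPM (144–163) in macrophage-like cells, where ILC2 are group 2 innate lymphoid cells. The KO library gave 220 CPM (177–271) in ILC2-like and 212 CPM (184–242) in dendritic-like cells, which overlapped each other.

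Notch3 was a mural gene in both libraries. Pericyte-like cells had 1624 CPM (1535–1716) in the control and 1609 CPM (1216–2090) in the KO, the latter from 56 UMIs in 7 cells. Smooth muscle-like cells were next as a class, at 928 CPM (883–976) and 441 CPM (380–509). This class pooled unlike clusters. The one led by Tagln and Acta2 had 1913 and 1153 CPM, above the pericyte-like cells in the control. The one led by Ptn and Tenm2 had 41.6 and 33.5 CPM. The remaining classes lay far below both mural classes as pooled. In the control, endothelial-like cells had 26.9 CPM (16.7–41.1), with 14 of their 21 UMIs in a single cell, and fibroblast-like cells had 13.5 CPM (11.25–15.98), whereas in the KO the fibroblast-like cells came next at 62.2 CPM (53.7–71.7) and no endothelial-like cell had a Notch3 UMI.

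Notch4, known as an endothelial receptor, was at 193 CPM (164–227) in control and 146 CPM (111–189) in KO endothelial-like cells, and at or under 20.5 CPM in every other class of either library. Among these others, the dendritic-like cells at 15.7 and 17.8 CPM owed most of their Notch4 to the cluster led by Xcr1 and Clec9a, genes of type 1 dendritic cells. That cluster held 45 of the 49 control and 17 of the 18 KO Notch4 UMIs of the class.

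**Figure D1:**
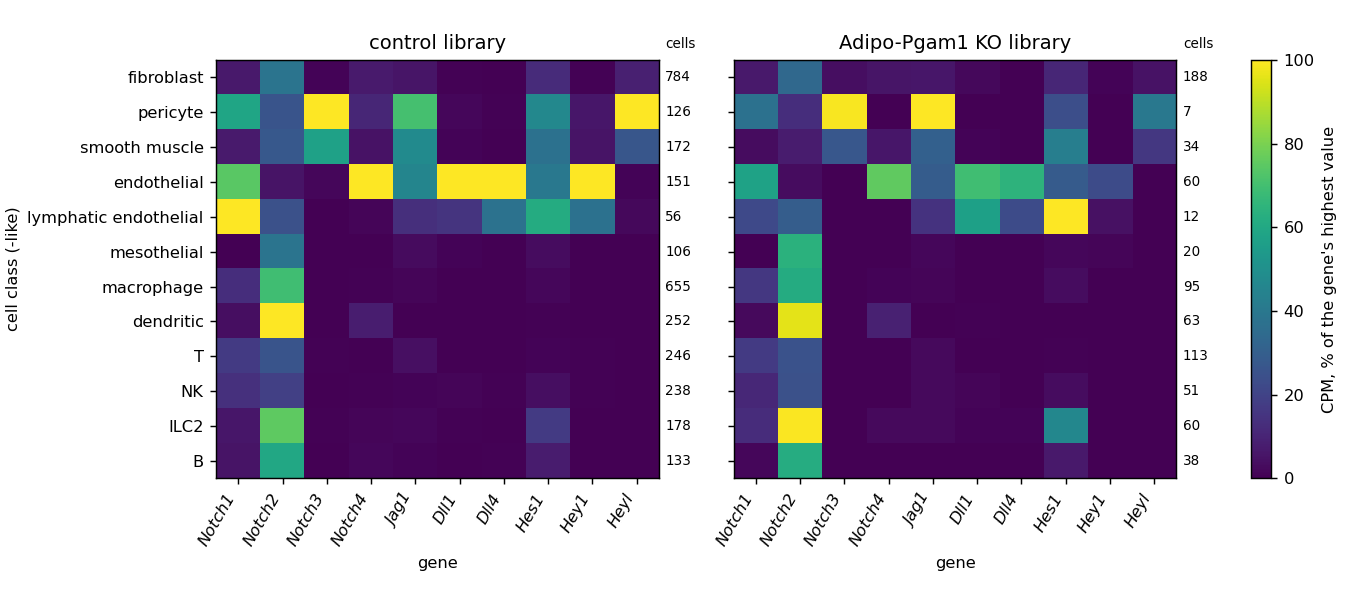
Level of each Notch gene (columns) in each cell class (rows) in the control and the Adipo-Pgam1 KO library, as CPM in percent of that gene's highest value over both libraries, with the number of cells beside each row. By pooled class, Notch3 and Heyl were highest in pericyte-like cells, Dll1, Dll4, Notch4 and Hey1 in endothelial-like cells and Notch2 in dendritic- and ILC2-like cells.

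The ligands were vascular. Dll4, the ligand of arteries and sprouting vessels, was at 238 CPM (205–275) in control and 154 CPM (118–197) in KO endothelial-like cells, followed by lymphatic endothelial-like cells at 89.4 CPM (60.7–127) and 54.6 CPM (17.7–127). Dll1 had the same order in the control, at 211 CPM (180–246) and 31.7 CPM (15.8–56.7). In the KO its intervals in these classes overlapped, at 146 CPM (111–189) and 120 CPM (59.9–215), the second from 11 UMIs in 12 cells. Jag1 was shared between mural and endothelial cells, with 364 CPM (323–409) in pericyte-like, 248 CPM (224–273) in smooth muscle-like and 236 CPM (203–272) in endothelial-like cells of the control.

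Among the targets, Hey1 and Heyl divided the vessel wall between them. Hey1 was at 240 CPM (206–276) in control endothelial-like cells and 14.1 CPM (7.05–25.3) in pericyte-like cells, and Heyl was at 5.12 CPM (1.40–13.1) and 502 CPM (453–554) in the same classes. Hes1 was spread more widely. Its highest control levels were 657 CPM (575–748) in lymphatic endothelial-like, 499 CPM (451–551) in pericyte-like, 427 CPM (382–475) in endothelial-like and 398 CPM (368–429) in smooth muscle-like cells, and the intervals of the last 3 overlapped from each to the next.

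For 4 members, the genes with the most similar pattern were found by Pearson's r of log2(CPM + 1) over the 12 classes of the control library, among 12784 genes. For Notch3 they were Ednra (r = 0.96), Rgs4 (0.96), Abcc9 (0.95), Pth1r (0.95) and Cspg4 (0.95). For Dll4 they were Gpihbp1 (0.99), Robo4 (0.98), 8430408G22Rik (0.97), Nos3 (0.97) and Pim3 (0.97). Spag9 (0.92), Phlpp1 (0.87), Ackr1 (0.86), Tmcc3 (0.85) and Tcf15 (0.85) were nearest to Notch4, and Zfp58 (0.96), Kalrn (0.95), Hnrnph1 (0.95), Sirt5 (0.95) and Lgals4 (0.94) to Hes1. These are descriptions over 12 points that share a library and differ in depth.

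**Figure D2:**
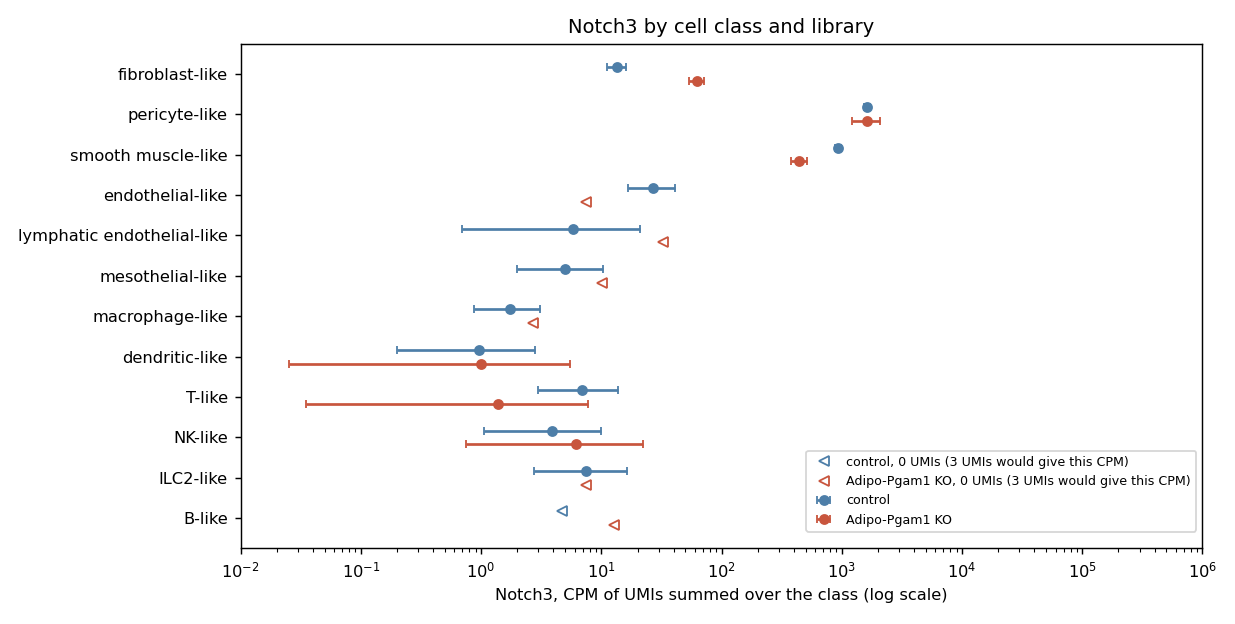
Notch3 level (CPM, log scale) in each cell class of the control and the Adipo-Pgam1 KO library, with exact 95% counting intervals. Open triangles stand for classes with 0 UMIs and are placed at the CPM that 3 UMIs would give. Fibroblast-like cells had 13.5 CPM in the control and 62.2 CPM in the KO, both far below the mural classes as pooled. The smooth muscle-like cluster led by Ptn and Tenm2 alone had 41.6 and 33.5 CPM.

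The comparison of KO with control was made first in fibroblast-like cells, of which there were 784 in the control and 188 in the KO, with a median of 12309 and 17595 UMIs. Notch3 had 130 control and 190 KO UMIs there, or 13.5 CPM (11.25–15.98) against 62.2 CPM (53.7–71.7). The KO level was 4.62-fold higher (log2 ratio 2.21, interval 1.88 to 2.54). This value was part of the choice of genes. Since fewer cells of a kind and less RNA per cell give the same sum, the cells that held the UMIs are described next.

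Notch3 was read in 90 of the 784 control fibroblast-like cells (11.5%) and in 58 of the 188 KO cells (30.9%). Lymphoid and macrophage-like cells, in which dendritic-like cells are counted here and below, were taken as a background. They had a Notch3 UMI in 1.59% of 1702 control cells and 0.714% of 420 KO cells, at a median of 5667.5 and 6999.5 UMIs. With every cell thinned to 2000 UMIs, 15 of 773 control and 21 of 186 KO fibroblast-like cells still had a Notch3 UMI (1.94% and 11.3%), so the difference was present at equal depth. In the KO, 12 cells had 5 to 9 Notch3 UMIs and 2 had 10 or more, with a highest value of 25, whereas only 2 control cells had 5 to 9 and none had more. Without the highest cell of each library the log2 ratio was 2.09 (1.74 to 2.44).

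The higher Notch3 was not spread evenly over the fibroblast-like cells. The cluster led by Abca8a, Bmper and Adamts5 went from 14.7 CPM in the control to 89.1 CPM in the KO (log2 ratio 2.60, 2.23 to 2.96), while the cluster led by Cilp, Pi16 and Fndc1 had 10.46 and 11.4 CPM (0.12, −0.98 to 1.13). Sub-clusters showed the same division. In the one led by Kcna2 and Gatm, Notch3 was at 13.3 CPM in the control and 89.9 CPM in the KO, and in the one led by Thbs1 and Cxcl14 it was at 23.9 and 133 CPM. The one led by Chrdl1, with 28 control and 8 KO cells, had the highest levels of both libraries, at 128 and 357 CPM, but a single KO cell held 25 of its 34 KO UMIs, and without the highest cell of each library the log2 ratio was 0.10 (−1.22 to 1.30) from 20 and 9 UMIs. By contrast, the sub-cluster led by Col8a1 and Mfap4 had 3.87 and 4.24 CPM, from 7 and 3 UMIs.

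Mural markers were counted in the same cells because Notch3 is a mural gene. Rgs5, the pericyte marker, had 208 control and 10 KO UMIs in fibroblast-like cells (21.5 and 3.28 CPM), in 10.3% and 4.79% of the cells. Lymphoid and macrophage-like cells had 22.6 and 6.83 CPM and shares of 8.34% and 4.29%, so Rgs5 in fibroblast-like cells is read as background in both libraries and its ratio as no difference in expression. Of the 58 KO cells with Notch3, 2 also had Rgs5. Among cells without Rgs5 (703 control and 179 KO cells), Notch3 was at 13.3 and 62.6 CPM (2.23, 1.89 to 2.58), a ratio as large as in all fibroblast-like cells. In the cells with no UMI of any of 6 pericyte markers (Rgs5, Kcnj8, Abcc9, Cspg4, Higd1b and Cox4i2) it was at 12.5 and 53.3 CPM (2.09, 1.70 to 2.49).

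The other mural markers differed in direction. Of the contractile genes of smooth muscle, Acta2 (32.6 against 12.1 CPM, log2 ratio −1.43) and Tagln (45.6 against 19.7 CPM, −1.21) were lower in KO fibroblast-like cells, whereas Myh11 (15.8 against 36.7 CPM, 1.21) and Lmod1 (20.4 against 38.0 CPM, 0.90) were higher. Lymphoid and macrophage-like cells had an Acta2 UMI in 12.9% and 8.33% of cells and a Tagln UMI in 10.99% and 6.67%, against 19.0% and 14.9% and 15.8% and 12.8% of fibroblast-like cells. Their shares were 4.05% in each library for Myh11 and 0.881% and 0.476% for Lmod1, against 9.06% and 18.1% and 13.9% and 26.6% of fibroblast-like cells. Vtn, the gene of vitronectin, was at 98.9 and 181 CPM (0.87, 0.72 to 1.03). Pdgfrb (239 and 269 CPM), Mylk (143 and 161 CPM), Des (69.4 and 62.2 CPM) and Abcc9 (5.28 and 6.55 CPM) had log2 ratios of 0.17, 0.17, −0.16 and 0.31. Higd1b and Cspg4 had 32 and 14 control and 4 and 8 KO UMIs, and Kcnj8, Cox4i2, Cnn1 and Actg2 had under 20 UMIs over both libraries. Summed over each list, the 8 pericyte markers gave 372 and 467 CPM, with Pdgfrb the most abundant, and the 8 smooth muscle markers 328 and 332 CPM, with Mylk the most abundant, and no marker of either list was at 0.

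Within the KO, cells rich in Notch3 differed from the rest in several of these markers. All 14 KO cells with 5 or more Notch3 UMIs had Pdgfra, Dcn and Col1a1, the last 2 being matrix genes of fibroblasts. Of these 14, 13 had Vtn, 10 had Lmod1, 5 had Myh11, 2 had Acta2, 1 had Tagln and 1 had Rgs5. Among the 130 KO cells with 0 Notch3 UMIs, 32.3% had Vtn, 15.4% had Lmod1, 10.0% had Myh11, 13.1% had Acta2 and 11.5% had Tagln. Their median depth was 17006.5 UMIs, against 19467 UMIs in the 14 cells. The direction for Vtn, Lmod1 and Myh11 was the same in the control. Of its 88 cells with 1 to 4 Notch3 UMIs, 56.8% had Vtn, 21.6% had Lmod1 and 15.9% had Myh11. In its 694 cells with 0 Notch3 UMIs the shares were 37.6%, 12.7% and 8.21%.

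**Figure D3:**
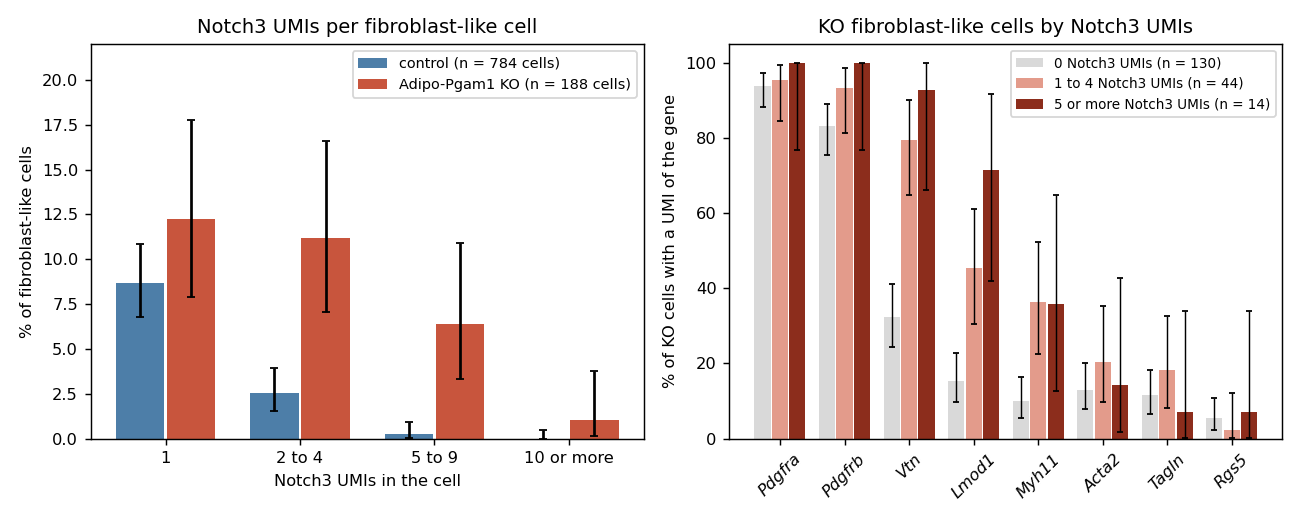
Left, share of fibroblast-like cells (percent) by number of Notch3 UMIs in the cell, for the control and the Adipo-Pgam1 KO library. Right, share of KO fibroblast-like cells with a UMI of each marker, for cells with 0, 1 to 4, and 5 or more Notch3 UMIs, where error bars in both panels are exact 95% counting intervals. Vtn and Lmod1 were found in 13 and 10 of the 14 Notch3-rich cells, and Rgs5 in 1.

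A choice of cells by all 16 mural markers together ended the difference. In the cells with a UMI of under 3 of the 16, 336 in the control and 67 in the KO, Notch3 was at 8.37 and 7.59 CPM (log2 ratio −0.14, −1.56 to 1.07) from 32 and 7 UMIs. In the cells with 3 or more, 448 and 121, it was at 16.8 and 85.9 CPM (2.35, 1.99 to 2.72). These lists include Pdgfrb, Des, Mylk and Vtn, which had a UMI in 82.7%, 46.2%, 44.1% and 39.9% of control fibroblast-like cells, and KO cells with 3 or more markers were also deeper (median 18554 against 14445 UMIs). In cells without Myh11 and Lmod1 the log2 ratio was 1.57 (1.07 to 2.06), and in cells without Acta2 and Tagln it was 2.57 (2.15 to 3.00). Sox10 and Foxd3, which mark Schwann cells, had no UMI in control fibroblast-like cells and 33 and 19 UMIs in KO ones. Without the 7 KO cells that held 3 or more Schwann cell markers, the log2 ratio of Notch3 was 2.23 (1.90 to 2.56).

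A gene was taken as measured in a class when the libraries together gave it 20 or more UMIs there, and 8 of the 10 members were measured in fibroblast-like cells. Of these, 2 were at least 2-fold higher in the KO, Notch3 and Dll1, and 0 were at least 2-fold lower, where 2.51% of 11867 genes were higher and 3.46% lower by this measure. Nothing is read from these counts, because the choice of genes used this comparison. Dll1 had 13 UMIs in each library (1.35 and 4.26 CPM, log2 ratio 1.66, 0.43 to 2.89), and without the highest cell of each library the interval included 0 (1.26, −0.17 to 2.63). The other receptors were nearer to no difference over the whole class, with Notch1 at 36.1 and 37.3 CPM (0.05, −0.27 to 0.36), Notch2 at 85.3 and 75.0 CPM (−0.19, −0.40 to 0.03) and Notch4 at 14.2 and 10.8 CPM (−0.39, −0.99 to 0.16). Jag1 was at 28.6 and 32.1 CPM (0.17, −0.18 to 0.51). For Notch1 the class value pooled clusters that differed. It was higher in the KO in the cluster led by Cilp, Pi16 and Fndc1, at 10.11 and 26.5 CPM from 29 and 28 UMIs (1.39, 0.59 to 2.19), and at 47.1 and 43.0 CPM in the one led by Abca8a, Bmper and Adamts5 (−0.13, −0.49 to 0.22).

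Of the member targets, Heyl and Hes1 were not higher in the KO over these cells as a class. Cdkn1a, counted among other targets in the pathway list, was higher and is given below. Targets were not compared by the Notch3 UMIs of a cell. Heyl, a target that Notch3 is known to drive in mural cells, was lower in the KO at 43.9 against 25.2 CPM (log2 ratio −0.80, −1.17 to −0.45), with 231 of 784 and 41 of 188 cells holding a UMI. Hes1 was at 130 and 114 CPM (−0.18, −0.36 to −0.01), close to the median of all measured genes (−0.10). In the sub-cluster led by Thbs1 and Cxcl14, however, Hes1 was at 153 and 79.4 CPM (−0.94, −1.60 to −0.34). Without the highest cell of each library it was at −1.02 (−1.75 to −0.38) there. Its intervals in the other sub-clusters included 0. By sub-cluster, the Heyl ratio is given beside that of Notch3, and a link between them was not tested. Heyl was at 51.3 and 27.2 CPM (−0.91, −1.53 to −0.34) in the sub-cluster led by Kcna2 and Gatm, where the Notch3 ratio was 2.76, and at 81.8 and 66.7 CPM (−0.29, −1.04 to 0.38) in the one led by Thbs1 and Cxcl14, where it was 2.48. In the one led by Col8a1 and Mfap4, where Notch3 had 7 and 3 UMIs, Heyl was at 20.5 and 7.07 CPM from 37 and 5 UMIs (−1.53, −3.24 to −0.18). The sub-cluster led by Cxcl1 had a Notch3 ratio of 0.98 and a Heyl ratio of −0.65 (−1.50 to 0.11). The one led by Chrdl1 had 1.48 and −0.34 (−2.17 to 1.21), the latter from 14 and 5 UMIs. Jag1 was at 21.8 and 39.9 CPM in the Kcna2 sub-cluster (0.88, 0.28 to 1.46). In the one led by Thbs1 and Cxcl14 it was at 21.8 and 47.7 CPM (1.13, 0.14 to 2.05). It had the other direction in the sub-cluster led by Igfbp5 and Nov, at 101.4 and 40.6 CPM (−1.32, −2.43 to −0.37). In the remaining sub-clusters the Jag1 intervals included 0. Dll4 and Hey1 had 6 and 19 UMIs in fibroblast-like cells over both libraries, too few for a comparison.

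**Figure D4:**
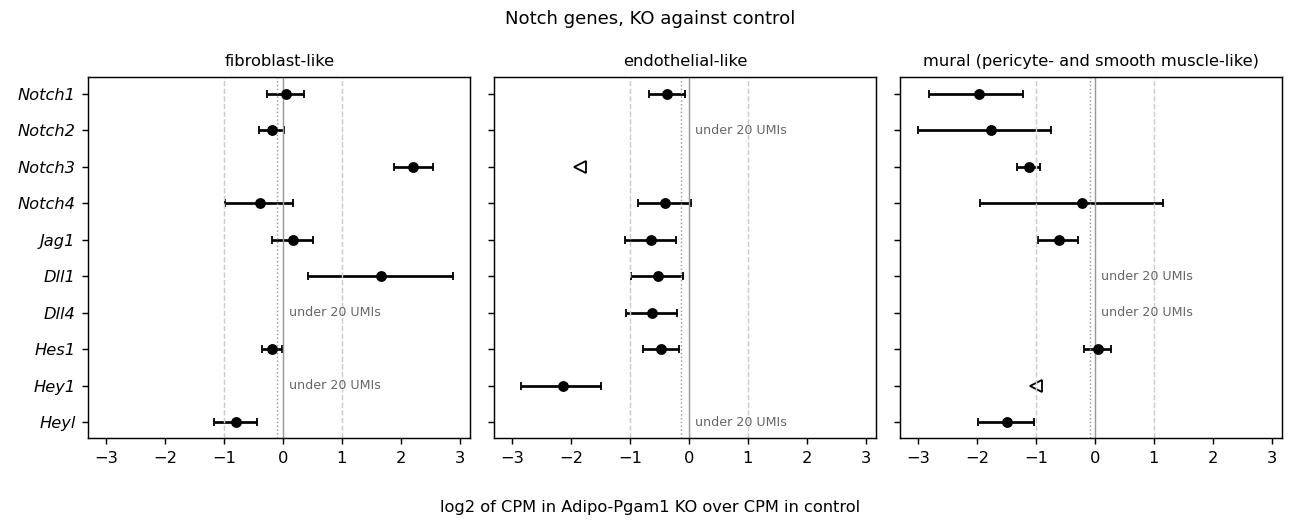
Log2 ratio of CPM in Adipo-Pgam1 KO over CPM in control for each Notch gene in fibroblast-like, endothelial-like and mural cells, with exact 95% counting intervals. Dashed lines mark 2-fold, the dotted line is the median of all measured genes, and open triangles are genes with 0 KO UMIs, set against 3 UMIs. Notch3 was higher in KO fibroblast-like cells (2.21), and Hey1 was lower in KO endothelial-like cells (−2.13).

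In endothelial-like cells, 151 in the control and 60 in the KO, Hey1 was lower in the KO, and the other members differed less or rested on few cells. All 8 that were measured had pooled log2 ratios below 0, with a median of −0.58, where the median of all 7238 measured genes was −0.13. Of the 8, 2 were at least 2-fold lower and 0 higher, against 7.29% and 2.46% of all measured genes. Control cells had a median depth of 4366 UMIs and KO cells one of 6656.5.

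Hey1, a repressor downstream of Notch that is known for arterial identity, had the largest ratio of those with UMIs in both libraries. It had 187 control and 22 KO UMIs, or 240 CPM (206–276) against 54.6 CPM (34.2–82.7), and was 4.39-fold lower in the KO (log2 ratio −2.13, −2.84 to −1.49). A Hey1 UMI was found in 61 of 151 control cells and in 12 of 60 KO cells (40.4% and 20.0%), and in 29 of 116 and 5 of 47 after thinning to 2000 UMIs (25.0% and 10.6%). In lymphoid and macrophage-like cells the shares were 0.235% and 0 of 420.

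Hes1 was at 427 and 308 CPM (−0.47, −0.78 to −0.17), Notch1 at 402 and 313 CPM (−0.36, −0.67 to −0.06) and Notch4 at 193 and 146 CPM (−0.40, −0.86 to 0.04). The ligands were lower by similar amounts, with Jag1 at 236 and 151 CPM (−0.64, −1.08 to −0.21), Dll1 at 211 and 146 CPM (−0.53, −0.98 to −0.09) and Dll4 at 238 and 154 CPM (−0.63, −1.07 to −0.21). Scaled by TMM factors, which weigh the bulk of genes rather than total UMIs, Notch1 was at −0.23 (−0.54 to 0.07) and Dll1 at −0.40 (−0.85 to 0.04), so that both intervals included 0. With cells of 1000 genes or more and a mitochondrial share up to 5%, Jag1 was at −3.04 (−4.96 to −1.61) and Dll4 at −3.31 (−4.97 to −2.04), far below the values above. Notch3 had 21 control and 0 KO UMIs, which is at least 3.61-fold lower when set against 3 UMIs over the class. This bound rests on 1 control cell: without it there were 7 and 0 UMIs, too few to be measured, so 1 of the 2 members counted as 2-fold lower depends on that cell. Without the highest cell of each library, Jag1 was at −1.03 (−1.55 to −0.54). The 8 pericyte markers were also lower in these cells, at 286 CPM in the control and 44.7 CPM in the KO, with Rgs5 the most abundant (179 and 12 UMIs) and Pdgfrb and Higd1b at 0 in the KO. In the endothelial-like cells with 0 Rgs5 UMIs, Hey1 was at 238 and 63.4 CPM (−1.91, −2.66 to −1.23), Dll4 at 246 and 171 CPM (−0.52, −1.0 to −0.07) and Jag1 at 244 and 168 CPM (−0.54, −1.02 to −0.08).

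The endothelial-like cells split into an arterial-like sub-cluster led by Gja5 and Gkn3, a capillary-like one led by Car4 and a venous-like one led by Selp and Lrg1. Arterial-like cells made up 79 of 151 control cells (52.3%, 44.0–60.5) and 19 of 60 KO cells (31.7%, 20.3–44.96). Within the arterial-like cells the intervals of the 3 ligands included 0, with Dll4 at 379 and 382 CPM (log2 ratio 0.01, −0.53 to 0.53), Jag1 at 429 and 487 CPM (0.18, −0.30 to 0.65) and Dll1 at 315 and 267 CPM (−0.24, −0.89 to 0.37). Notch4 was at 288 and 325 CPM (0.17, −0.43 to 0.75). A few cells carried much of the KO signal, with 18 of the 51 Jag1 and 11 of the 28 Dll1 UMIs in a single cell each. Without the highest cell of each library, Jag1 was at −0.20 (−0.79 to 0.35), Dll4 at −0.17 (−0.77 to 0.40) and Dll1 at −0.75 (−1.58 to −0.00304), so the ligands cannot be called equal here.

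Hey1, Hes1 and Notch1, however, were lower in the KO within the arterial-like cells. Hey1 had 159 control and 20 KO UMIs there, or 440 and 191 CPM (−1.20, −1.95 to −0.53). Hes1 was at 404 and 172 CPM (−1.23, −2.03 to −0.52) and Notch1 at 567 and 296 CPM (−0.94, −1.53 to −0.39). All 3 were also lower without the highest cell of each library, at −1.32 (−2.17 to −0.57), −1.79 (−2.83 to −0.90) and −1.005 (−1.67 to −0.40). Of the 7 members measured, 2 were at least 2-fold lower, where 12.3% of the genes measured in this sub-cluster were, and the KO values rest on 19 cells. Markers of capillary endothelium were lower in the same cells, with Gpihbp1 at 437 and 105.04 CPM (−2.06), Cd300lg at 163 and 19.1 CPM (−3.10) and Aqp7 at 194 and 66.8 CPM (−1.53), while Rgcc had 18 and 7 UMIs and Car4 none. Of the 7 arterial markers, Efnb2 was lower (705 and 439 CPM, −0.68, −1.17 to −0.23), and the intervals of the other 6 included 0. Of the 5 venous markers, Vwf was higher (481 and 659 CPM, 0.45, 0.03 to 0.86), and the others had under 20 UMIs over both libraries. The makeup of the sub-cluster and the level per cell cannot be told apart here.

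In capillary-like cells, 43 in the control and 22 in the KO, Hey1 was at 96.3 and 12.9 CPM from 20 and 2 UMIs (−2.90, −6.04 to −0.86). A single control cell held 9 of the 20, and without the highest cell of each library 11 and 1 UMIs were left, too few to be measured. In the same cells Hes1 was at 327 and 381 CPM (0.22, −0.31 to 0.74) and Notch1 at 279 and 323 CPM (0.21, −0.37 to 0.78). In venous-like cells, 29 and 19, Hes1 was at 563 and 328 CPM (−0.78, −1.30 to −0.28) and Notch1 at 241 and 314 CPM (0.38, −0.23 to 0.99). Hey1 had 8 control and 0 KO UMIs in the venous-like cells, 6 of the 8 in 1 cell. Dll4 had 16 control and 1 KO UMIs in the venous-like cells, too few to be measured, and 12 and 0 without the highest cell of each library. In capillary-like cells Dll4 was at 159 and 135 CPM (−0.23, −1.09 to 0.60). Of the Hey1 UMIs in endothelial-like cells, 159 of 187 in the control and 20 of 22 in the KO lay in arterial-like cells. Arterial-like cells were also a smaller share of the class in the KO (52.3% and 31.7%). The pooled Hey1 ratio of −2.13 thus mixes level and makeup, beside −1.20 within the arterial-like cells. The direction for Hes1 and Notch1 differed between the sub-clusters. Markers of the sub-types also differed in these cells. In capillary-like cells the arterial marker Sox17 was at 260 and 129 CPM (−1.01, −1.83 to −0.25) and Fbln5 had 18 and 2 UMIs, while Efnb2 (−0.55, −1.34 to 0.21) and Sema3g (0.19, −0.44 to 0.83) had intervals that included 0. The capillary markers Gpihbp1 (1637 and 2980 CPM, 0.86, 0.66 to 1.07), Car4 (260 and 703 CPM, 1.44, 0.95 to 1.93), Rgcc (0.60, 0.27 to 0.94) and Cd300lg (0.35, 0.05 to 0.65) were higher there in the KO, and Aqp7 was at 0.23 (−0.11 to 0.58). Most capillary markers were thus higher in the KO cells of this sub-cluster. In venous-like cells Sox17 was at 256 and 133 CPM (−0.95, −1.78 to −0.17), Gja4 had 14 and 2 UMIs, Sema3g 7 and 0 and Bmx 6 and 0, while Fbln5 was higher at 80.5 and 203 CPM (1.33, 0.42 to 2.29) and Efnb2 was at 0.01 (−1.13 to 1.11). The venous markers Vwf (644 and 1941 CPM, 1.59, 1.29 to 1.90), Nr2f2 (322 and 740 CPM, 1.20, 0.75 to 1.66) and Selp (374 and 656 CPM, 0.81, 0.36 to 1.26) were higher there in the KO, Ackr1 was at 0.56 (−0.30 to 1.42) and Vcam1 at −0.22 (−0.86 to 0.39). The capillary markers Gpihbp1 (−0.84), Cd300lg (−1.30), Aqp7 (−1.82) and Rgcc (−1.89) were lower in the KO venous-like cells. The part of these markers in the Hey1 ratio was not tested.

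**Figure D5:**
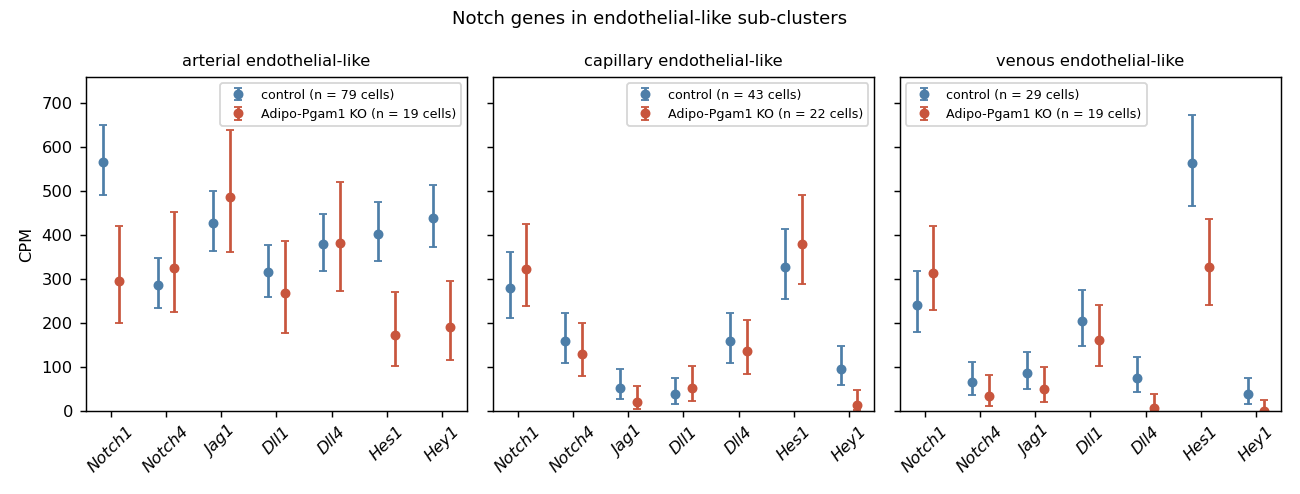
CPM of 7 Notch genes in arterial-, capillary- and venous-like endothelial cells of the control and the Adipo-Pgam1 KO library, with exact 95% counting intervals. In arterial-like cells the intervals of Dll4, Jag1 and Notch4 overlapped between the libraries, while Hey1 (440 and 191 CPM), Hes1 (404 and 172 CPM) and Notch1 (567 and 296 CPM) were lower in the KO.

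Mural cells were few in the KO, with 41 cells against 298, and their makeup differed. Pericyte-like cells were 126 of the 298 control cells and 7 of the 41 KO cells. The smooth muscle-like cluster led by Ptn and Tenm2 was 80 of the 298 and 20 of the 41, so that pooled values mix level and makeup. Notch3 was at 1152 CPM (1109–1195) in control and 530 CPM (465–601) in KO mural cells, 2.17-fold lower (log2 ratio −1.12, −1.32 to −0.93). By cluster, the log2 ratio was −0.01 (−0.43 to 0.37) in pericyte-like cells, −0.73 (−0.96 to −0.50) in the smooth muscle-like cluster led by Tagln and Acta2 (1913 and 1153 CPM in 92 and 14 cells), and −0.31 (−1.55 to 0.77) in the one led by Ptn and Tenm2 (41.6 and 33.5 CPM in 80 and 20 cells). This last cluster had a Notch3 level far below the other mural clusters in both libraries. Of its 10 leading genes only Cnn1 was in the smooth muscle or pericyte list. Whether it is mural beyond the naming rule was not tested.

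Heyl was at 252 and 89.7 CPM in mural cells (−1.49, −1.98 to −1.03), at 502 and 201 CPM in pericyte-like cells from 391 and 7 UMIs (−1.32, −2.64 to −0.26), and at 216 and 97.7 CPM in the cluster led by Tagln and Acta2 (−1.15, −2.02 to −0.38), but at 60.03 and 70.7 CPM in the cluster led by Ptn and Tenm2 (0.24, −0.60 to 1.02). Notch1 was at 128 and 32.8 CPM in the pooled cells (−1.97, −2.82 to −1.22), more than in any mural cluster alone. Its log2 ratio was −0.66 (−1.99 to 0.40) in pericyte-like cells, −1.35 (−3.28 to 0.09) in the cluster led by Tagln and Acta2 and 0.23 (−1.88 to 1.98) in the one led by Ptn and Tenm2. Notch2 was at 59.8 and 17.5 CPM (−1.77, −3.01 to −0.75) and Jag1 at 285 and 186 CPM (−0.62, −0.96 to −0.29). By cluster, Jag1 was at 364 and 517 CPM in pericyte-like cells from 284 and 18 UMIs (0.50, −0.27 to 1.19), 393 and 254 CPM in the cluster led by Tagln and Acta2 (−0.63, −1.15 to −0.15) and 117 and 104 CPM in the one led by Ptn and Tenm2 (−0.16, −0.82 to 0.45). Notch2 had 45 and 1, 36 and 3, and 64 and 4 UMIs in these clusters, and in the last its ratio was −2.31 (−4.23 to −0.88). Hes1 was at 430 and 444 CPM in the pooled cells (0.05, −0.18 to 0.26), a value that mixed clusters of opposite direction. It was at 499 and 259 CPM in pericyte-like cells from 389 and 9 UMIs (−0.95, −2.09 to −0.0093), 432 and 410 CPM in the cluster led by Tagln and Acta2 (−0.07, −0.48 to 0.32) and 367 and 488 CPM in the one led by Ptn and Tenm2 (0.41, 0.11 to 0.71). Without the highest cell of each library these 3 ratios were −1.84 (−3.72 to −0.47), −0.62 (−1.17 to −0.12) and 0.31 (−0.01 to 0.63). Hey1 had 32 control and 0 KO UMIs, at least 2.01-fold lower against 3 UMIs over the class, and Notch4 had 31 and 5, Dll1 6 and 1 and Dll4 2 and 0. Of the 8 members measured in mural cells, 5 were at least 2-fold lower and 0 higher, beside 6.97% and 3.29% of all measured genes. The pericyte markers were lower as well (9039 against 3925 CPM summed) and the smooth muscle markers higher (12399 against 17277 CPM), and the part of makeup in the members' ratios cannot be told apart from level in the pooled cells.

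Outside the vessel wall and the fibroblast-like cells, most members were too low to compare. In ILC2-like cells Hes1 had 146 UMIs in 178 control cells and 200 UMIs in 60 KO cells, or 183 CPM (154–215) against 494 CPM (428–567), a log2 ratio of 1.44 (1.12 to 1.75), and 1.42 (1.07 to 1.77) without the highest cell of each library. A Hes1 UMI was found in 18.5% of the control and 30% of the KO ILC2-like cells (median 4451 and 6951 UMIs), and in 13.5% and 20.7% after thinning, where dendritic-like cells had shares of 4.37% and 3.17%. Most ILC2-like cells thus had no Hes1 UMI, and the interval of the ratio does not cover this spread between cells. Notch1 was at 33.8 and 69.2 CPM there (1.03, 0.22 to 1.85) and Notch2 at 166 and 220 CPM (0.40, 0.00 to 0.80). Of these 3 measured members, 2 were at least 2-fold higher, beside 3.09% of the genes measured in ILC2-like cells.

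In macrophage-like cells Hes1 was at 18.5 and 34.3 CPM (0.89, 0.32 to 1.43), but 21 of its 38 KO UMIs came from a single cell, and without the highest cell of each library the log2 ratio was −0.17 (−1.003 to 0.57). Notch1 (71.5 and 87.5 CPM) and Notch2 (154 and 136 CPM) had intervals that included 0. The same held for Notch1 and Notch2 in T-like, NK-like and dendritic-like cells and for Notch4 in dendritic-like cells. In T-like cells Notch1, which is known for its part in T cell development, was at 91.8 and 91.5 CPM (0.00, −0.47 to 0.45). Jag1 had 46 and 7 UMIs in macrophage-like and 25 and 9 in T-like cells, and Hes1 had 42 and 12 in NK-like and 19 and 2 in dendritic-like cells. The lymphatic endothelial-, mesothelial- and B-like classes had few KO cells, and their UMIs and CPM are given without a ratio. In lymphatic endothelial-like cells, 56 and 12, Notch1 had 188 and 11 UMIs (542 and 120 CPM), Hes1 228 and 98 (657 and 1070 CPM), Hey1 31 and 1 (89.4 and 10.9 CPM), Jag1 24 and 7 (69.2 and 76.4 CPM) and Notch2 19 and 6 (54.8 and 65.5 CPM). In mesothelial-like cells, 106 and 20, Notch2 had 120 and 42 UMIs (85.4 and 141 CPM), Hes1 51 and 5 (36.3 and 16.8 CPM) and Jag1 20 and 3 (14.2 and 10.1 CPM). In B-like cells, 133 and 38, Notch2 had 85 and 32 UMIs (133 and 137 CPM), Hes1 51 and 17 (79.5 and 72.5 CPM) and Notch1 18 and 2 (28.1 and 8.53 CPM). Members not named for a class outside the vessel wall and the fibroblast-like cells had under 20 UMIs there over both libraries, apart from the Dll1 and Dll4 values of lymphatic endothelial-like cells given above.

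The rest of the pathway was represented by 63 genes, of which 62 were found. In fibroblast-like cells 48 were measured, 1 was at least 2-fold higher and 1 lower, near the 2.51% and 3.46% of all measured genes, and their median log2 ratio was −0.15. The higher one was Cdkn1a, the cell cycle inhibitor p21, at 35.2 and 79.6 CPM (1.18, 0.93 to 1.42), and the lower one was Neurl3, a relative of Neuralized, which acts in the uptake of Notch ligands, with 33 and 4 UMIs. None of the 9 receptor cleavage genes, which include the γ-secretase subunits, and none of the 18 genes of the nuclear complex and its co-repressors passed 2-fold there.

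In endothelial-like cells 42 were measured, 2 were at least 2-fold higher and 4 lower, near the 2.46% and 7.29% of all measured genes. Cdkn1a was at 53.8 and 447 CPM, 8.30-fold higher in the KO (3.05, 2.56 to 3.57), with 55.3 and 573 CPM in the arterial-like and 62.6 and 697 CPM in the capillary-like cells, and Neurl3 was at 25.6 and 52.1 CPM (1.02, 0.07 to 1.98). The lower genes were Maml1 and Maml3, co-activators of the Notch nuclear complex, Fbxw7, which marks cleaved Notch for degradation, and Rfng, a glycosyltransferase of the receptors. They had 39, 17, 25 and 17 control and 10, 3, 6 and 3 KO UMIs, and the intervals of all 4 included 0. In mural cells 50 were measured, 1 was higher and 5 were lower, near the 3.29% and 6.97% of all measured genes. Nrarp, a target that feeds back on Notch signalling, was at 75.4 and 24.1 CPM (−1.65, −2.68 to −0.77) and the γ-secretase subunit Psen2 at 41.2 and 10.9 CPM (−1.91, −3.57 to −0.64). Lfng had 35 and 1 UMIs (−2.72, −8.06 to −0.15). Poglut1 and Mib2, also lower, had 85 and 51 control and 8 and 4 KO UMIs. Hes6 was the higher one by CPM, with 29 and 11 UMIs. The intervals for Poglut1, Mib2 and Hes6 included 0.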

How the data were processed

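The authors aligned the reads to mm10 and counted UMIs per gene and barcode. The submitters' processing notes name Cell Ranger 3.0.1, Seurat 3.1.5 and R 4.0.1. The deposited counts are whole UMI counts that were not normalized. The members, marker and pathway lists were chosen with earlier results of these data known.

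A barcode was kept if it showed 500 genes or more and no more than 10% of its UMIs were mitochondrial. Of 3881 control and 958 KO cells, the 265 and 21 with the highest simulated-doublet score in scanpy 1.11.5 were removed (0.8% per 1000 barcodes). Each cell was scaled to 10000 UMIs, logs were taken, and 2000 variable genes (Notch genes left out), 30 principal components and 20 neighbours went into Leiden clustering (leidenalg 0.10.2, resolution 0.5). Fibroblast- and endothelial-like cells were clustered again. Clusters were named by the mean z-score of marker lists, and parts of the naming rule were set after seeing the clusters, so classes may differ from the study's. Of the 23 clusters 6 stayed unnamed (519 control and 196 KO cells).

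UMIs were summed per class and library. Intervals are exact Poisson for CPM, Clopper-Pearson for shares and conditional binomial for ratios. PCR duplicates were removed through UMIs, and intervals cover counting error only. A gene was measured with at least 20 UMIs over both libraries, and counts under 3 were set to 3 before 2-fold was judged. The rule named all members in every class (those under 20 UMIs in a class are not all given one by one), pathway genes if at least 2-fold apart, all mural markers in fibroblast-like cells, and for 4 members the 5 genes of highest r. The scripts were tested on simulated data. The ratios were repeated under 20 other settings, which included scaling factors from edgeR 4.0.16 and DESeq2 1.42.0, and 5 settings were added after seeing the data. All sub-clusters, each taken alone, count as 1 of these 5. Of 28692 gene identifiers 28339 were in GENCODE M21. The summed level of the Schwann cell list is not reported here.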

Additional observations from a re-analysis of the deposited data

Results flagged for a closer look

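4 ratios differed in direction between classes with at least 50 cells in each library, with intervals that did not include 0 on either side. None of these differences was tested, since there was 1 library per genotype. The log2 ratio of Notch3 was 2.21 in fibroblast-like cells and −1.85 in endothelial-like cells, the latter with 0 KO UMIs set to 3. That of Dll1 was 1.66 in fibroblast-like cells and −0.53 in endothelial-like cells. Hes1 was at 1.44 in ILC2-like and −0.47 in endothelial-like cells, and Notch1 at 1.03 and −0.36 in the same classes. Without the highest cell of each library, endothelial-like Notch3 had 7 control and 0 KO UMIs, with an interval of the log2 ratio up to 0.37, and fibroblast-like Dll1 was at 1.26 (−0.17 to 2.63), so that 2 of the 4 no longer met this condition. Scaled by TMM factors, the intervals of endothelial-like Notch1 (−0.23, −0.54 to 0.07) and Dll1 (−0.40, −0.85 to 0.04) included 0, and their pairs no longer met it either.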

How the results depend on the processing

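The ratios were recomputed under 20 other settings and 5 added after seeing the data. The 5 count the 6 fibroblast-like and 3 endothelial-like sub-clusters, each taken alone, together as 1 setting. Notch3 in fibroblast-like cells was higher in the KO in all but 1 of the settings that gave a value. The exception was cells with under 3 mural markers (−0.14). It was 2.64 after thinning to 2000 UMIs, 2.57 without Acta2 and Tagln, 1.57 without Myh11 and Lmod1, and 2.76, 0.98 and 1.48 in the sub-clusters led by Kcna2, Cxcl1 and Chrdl1, the last at 0.10 (−1.22 to 1.30) without the highest cell of each library. In the Cxcl1 sub-cluster the interval included 0 (−0.20 to 2.05). Hey1 in endothelial-like cells was lower in each setting that gave a value, at −5.47 under a stricter filter (1000 genes or more, mitochondrial share up to 5%), −1.20 in arterial-like and −2.90 in capillary-like cells. Notch3 in mural cells was likewise lower, at −1.36 with the stricter filter, −1.63 at resolution 1.0, with another seed or with Notch genes in the clustering, −1.89 with each library clustered alone and −1.60 after thinning.

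Among ratios whose interval excluded 0 as reported, signs turned for Hes1 in fibroblast-like cells (0.26 and 0.22 in the sub-clusters led by Cxcl1 and Chrdl1) and, in endothelial-like cells, for Hes1 (0.0871 with libraries clustered alone, 0.22 in capillary-like cells), Notch1 (0.21 in capillary- and 0.38 in venous-like cells), Jag1 (0.18 in arterial-like cells) and Dll4 (0.0115 in arterial-like cells). At the other end, Hes1 in fibroblast-like cells was at −0.94 in the sub-cluster led by Thbs1 and Cxcl14, against −0.18 as reported. In endothelial-like cells, the stricter filter gave −3.04 for Jag1 and −3.31 for Dll4, against −0.64 and −0.63 as reported. The cause was not tested. Ratios whose interval included 0 also crossed it, with ranges of −1.67 to 0.17 for Notch4 in endothelial-like cells, −0.46 to 0.47 for Hes1 in mural cells and, in fibroblast-like cells, −1.32 to 1.13 for Jag1, −0.48 to 1.22 for Notch1, −0.70 to 0.43 for Notch2 and −2.42 to 0.54 for Notch4.

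Members at least 2-fold higher in fibroblast-like cells numbered 2, but 0 with under 3 mural markers, and 1 with the stricter filter, thinning, 50 UMIs, or cells without 6 pericyte markers, without Acta2 and Tagln, or without Myh11 and Lmod1. The share of all measured genes higher there was 2.51% as reported, and 2.68%, 2.43%, 2.24%, 1.4%, 2.09%, 2.27% and 2.73% under these settings in turn. Members lower there numbered 0, but 1 with the stricter filter, thinning, under 3 mural markers or without 6 pericyte markers. The share of all measured genes lower was 3.46% as reported, and 3.06%, 5.82%, 4.21% and 3.21% under these settings in turn. Those lower in endothelial-like cells numbered 2, but 4 with the stricter filter or thinning and 1 with 50 UMIs or 0 Rgs5 UMIs. The share of all measured genes lower there moved too, from 7.29% to 10.9%, 11%, 3.49% and 8.10% under these settings, so nothing about the members in particular is read from the counts. Those lower in mural cells numbered 5, but 2 under a looser filter (200 genes or more, mitochondrial share up to 20%), and 3 with the stricter filter, without doublet removal or after thinning. They numbered 6 with each library clustered alone, and 4 at resolution 1.0, another seed, Notch genes in the clustering, 50 UMIs, or TMM or median-of-ratios factors. The share of all measured genes lower there was 6.97% as reported, 7.48% with 2 members, 7.63%, 7.76% and 5.17% with 3, 5.63% to 8.2% with 4 and 9.18% with 6. Nothing about the members in particular is read from these counts either. TMM moved endothelial-like ratios by 0.13, and the intervals of Notch1 and Dll1 there then included 0, as did that of Hes1 in fibroblast-like cells (−0.09, −0.27 to 0.08). No paired analysis was possible because each genotype had 1 library. KO mural and arterial-like cells were few, which limits depth there.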

Other observations

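Cells of the unnamed clusters entered no comparison. The unnamed cluster led by S100a9 and Treml4, with genes of neutrophils and monocytes, had 296 Hes1 UMIs in 121 control cells and 41 in 36 KO cells, or 386 CPM (343–432) and 110 CPM (79.1–149). A cluster of low depth led by haemoglobin genes and carrying fibroblast markers had 13 Notch3 UMIs in 151 control cells and 11 in 51 KO cells, or 28.8 CPM (15.3–49.2) and 91.2 CPM (45.5–163).

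The 4906 control and 1793 KO barcodes that were left out of the analysis, by the filters or the doublet score, also held Notch UMIs. Notch3 was at 104 and 50.5 CPM in them, Hes1 at 108 and 74.4 CPM and Hey1 at 9.57 and 3.25 CPM.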
